A study of Arabidopsis thaliana with 4 samples.

Results

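TOE1, TOE2, TOE3, AP2, SMZ and SNZ are AP2-like transcription factor genes whose mRNAs are targets of the microRNA miR172. They were taken by name, as 6 of 32548 nuclear loci in the deposited tables. The rule uses no measured value, but the group was chosen with earlier results of these data known. The tables hold 4 libraries of nuclear RNA from leaves of 4-week-old Arabidopsis thaliana Col-0 plants grown in soil at 22 °C with 16 h of light and 8 h of dark. The tissue was fixed in 0.1% formaldehyde, nuclei were isolated, and part of the nuclear material was immunoprecipitated (IP) on GFP Trap magnetic beads, which bind GFP. An input and an IP library came from a line carrying MTA-GFP, a tagged form of the methyltransferase that writes N6-methyladenosine (m6A) on mRNA, and an input and an IP library came from a control line. Titles name that line GFP, whereas its genotype entry reads CFP. The sources used here do not give the promoter of either transgene, nor whether the MTA-GFP line lacks the endogenous protein.

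Proteins of this group are of the AP2 DNA-binding domain type. They repress the floral integrators FT and SOC1 in leaves and at the shoot tip, and so delay flowering. miR172 acts on their mRNAs by cleavage and by blocking translation, and it accumulates as a plant ages while miR156 declines. The series title names m6A on primary microRNA transcripts, so the comparisons here ask how mRNAs of a microRNA's target genes behaved in the same IP, and how the miR172 precursors did.

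Each group held 1 library, so no difference below has a replicate check, and each compares libraries and not the conditions behind them. Total reads were 36098699 to 45198238 per library, of which 955605 to 3044241 fell on nuclear mRNA. The intervals are 95% intervals for counting error only and treat reads as independent, which PCR copies without molecular identifiers are not. Ratios are of reads scaled by TMM factors, which place the typical nuclear locus near a log2 ratio of 0. When scaled instead to all reads of each library, including ribosomal and organelle RNA, the median of the 15669 loci measured moved from -0.06 to 2.11 in MTA-GFP IP over input, from 0.01 to -1.13 in control IP over input and from -0.05 to 3.26 in the double ratio (the MTA-GFP enrichment divided by the control enrichment). It moved from 0.01 to -0.95 in MTA-GFP input over control input and from -0.04 to 2.31 in MTA-GFP IP over control IP. A positive or negative log2 ratio therefore means above or below the typical locus, unless another scale is named. The transcript of MTA took 2291, 12860, 64 and 31 reads in the MTA-GFP input, the MTA-GFP IP, the control input and the control IP, so both MTA-GFP libraries were high.

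The labelled tissue was checked against marker genes. The 4 leaf mesophyll markers (RBCS1A, LHCB1.3, CA1 and RCA) summed to 14317 to 57919 reads per library. The 7 flower organ genes AP1, AP3, PI, AG, SEP1, SEP2 and SEP3 summed to only 3 to 10 reads per library. Of 4 shoot meristem genes, WUS and CLV3 were at 0 reads in every library, and STM and KNAT1 brought the sum to 5 to 26 reads. AP2 and TOE3, known for their work in flowers, were thus read in material in which flower organ genes were near 0.

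TOE1 was the most abundant of the 6 mRNAs in all 4 libraries, and SMZ the least. Levels of different genes are compared per length, as mRNA TPM, which is reads per effective base of each transcript entry, scaled as TPM over the nuclear mRNA entries of a library alone. TOE1 (AT2G28550, chromosome 2, listed as RAP2.7 in RefSeq), which represses flowering together with TOE2, stood at 164 (144 to 187) in the MTA-GFP input and 136 (124.96 to 148) in the matching IP. The control input stood at 183 (166 to 201) and the control IP at 130.3 (112 to 151). It lay between percentiles 96.2 and 97.3 of the 27440 nuclear mRNA loci in each library, and 3.12 to 4.76 times above the next member. It was lower in each IP than in its own input on this scale.

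TOE2 (AT5G60120, chromosome 5), the closest partner of TOE1 in holding back flowering, stood at 38.5 (29.8 to 49.0), 40.7 (35.3 to 46.7), 45.2 (37.5 to 54.0) and 20.8 (14.6 to 28.8) mRNA TPM in the same order. The control IP was the low library, below the interval of each of the other 3. SNZ (AT2G39250, chromosome 2), named Schnarchzapfen for the late flowering it causes when overexpressed, stood at 41.9 (29.9 to 57.1), 35.7 (28.9 to 43.6), 24.96 (17.9 to 33.9) and 27.4 (17.5 to 40.7). Both MTA-GFP libraries were above both control libraries in this gene on this scale, with overlapping intervals. In TMM-scaled reads the MTA-GFP IP, at 40.1, was not above the control IP, at 41.3.

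AP2 (AT4G36920, chromosome 4), which specifies sepals and petals and limits the activity of AGAMOUS, stood at 24.6 (16.7 to 34.9), 32.5 (26.7 to 39.2), 19.5 (13.8 to 26.6) and 17.6 (10.7 to 27.1) mRNA TPM. TOE3 (AT5G67180, chromosome 5), which also represses AGAMOUS in flowers, stood at 16.4 (8.95 to 27.5), 43.7 (35.8 to 52.7), 27.5 (19.5 to 37.8) and 26.5 (16.8 to 39.7). TOE3 thus had its lowest level in the MTA-GFP input and its highest in the MTA-GFP IP. SMZ (AT3G54990, chromosome 3), Schlafmütze, a repressor that binds the FT locus, had 1, 2, 3 and 0 reads and was below any reading of a change. A count of 0 in the control IP allows up to 3.14 RPM, with only nuclear mRNA reads in the total. The files give SMZ 2 entries of 744 and 1041 bases, and all of its reads were assigned to the shorter one.

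Behind TOE1, the order of the next 4 genes was not fixed. SNZ was second in the MTA-GFP input and the control IP, TOE3 in the MTA-GFP IP and TOE2 in the control input. Neighbours in the order differed beyond counting error only for TOE2 over AP2 in the MTA-GFP input (1.57-fold, log2 interval 0.04 to 1.26) and TOE2 over TOE3 in the control input (1.64-fold, 0.19 to 1.24), apart from the steps below TOE1 and above SMZ. The step from AP2 to SMZ in the control IP has no ratio, because SMZ had 0 reads there.

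**Figure D1:**
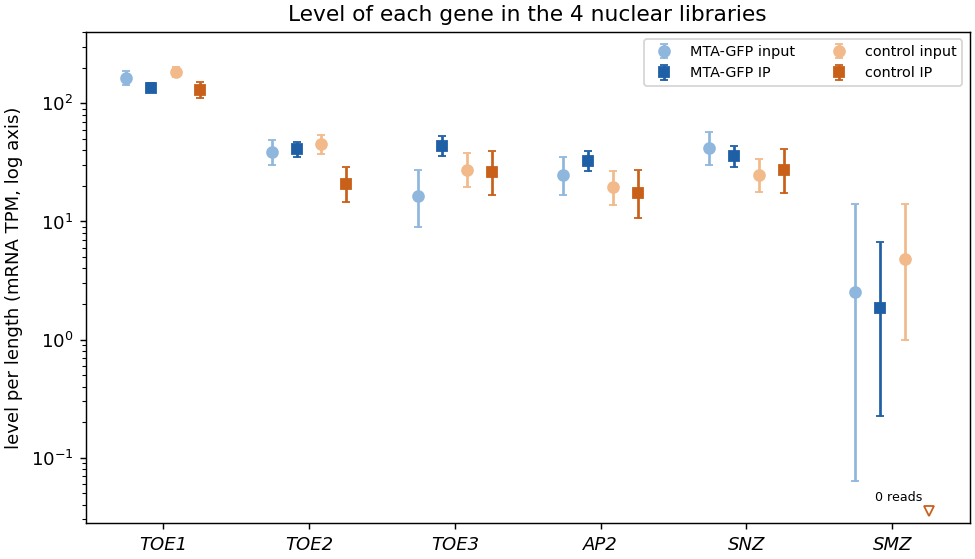
Level of each of the 6 genes per length (mRNA TPM, log axis) in the 4 libraries, with 95% counting intervals and 1 library per point. TOE1 lies between 130.3 and 183 in all 4, TOE3 runs from 16.4 in the MTA-GFP input to 43.7 in the MTA-GFP IP, and SMZ has 0 reads in the control IP (open triangle).

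As a group, the 6 genes held 393 reads in the MTA-GFP input, 1069 in the MTA-GFP IP, 665 in the control input and 284 in the control IP. As RPM of nuclear mRNA, that is RPM with only nuclear mRNA reads in the total, these were 388, 351, 386 and 297. On this scale the inputs were near each other and both IPs were lower than their inputs, by more in the control pair. These sums have no interval here, and which drop is larger depends on the scale and the gene. On TMM-scaled reads TOE1, with most of these reads, was at a log2 of -0.70 with MTA-GFP and -0.25 with the control. TOE2 was at -0.27 and -0.78.

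The genes can also be set against each other inside the same libraries, which needs no scaling. A share in an IP does not tell RNA bound through MTA-GFP from other RNA on the beads. The shares of a library sum to a whole, so a fall in the share of TOE1 lifts the others. TOE3 took 3.56% (95% Wilson interval 2.13 to 5.89) of the group's reads in the MTA-GFP input and 10.2% (8.52 to 12.2) in the MTA-GFP IP. In the control it took 5.71% (4.19 to 7.75) of the input and 8.10% (5.46 to 11.9) of the IP. The share was higher in each IP than in its input, and the intervals were apart only in the MTA-GFP pair. Between the IPs the intervals overlapped.

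TOE1 went the other way in the MTA-GFP pair, from 61.3% (56.4 to 66.0) of the input to 51.5% (48.5 to 54.4) of the IP, and stood at 63.5% (59.7 to 67.0) and 63.7% (58.0 to 69.1) in the control pair. The MTA-GFP IP was the low library among the 4. AP2 took 7.89% (5.61 to 10.98) of the MTA-GFP input and 10.3% (8.61 to 12.3) of its IP, beside 5.86% (4.32 to 7.92) and 7.04% (4.60 to 10.6) for the control. TOE2 took 16.8% (13.4 to 20.8) and 19.0% (16.8 to 21.5) in the same 2 libraries, and 18.3% (15.6 to 21.5) and 12.7% (9.30 to 17.05) in those of the control. SNZ took 10.2% (7.56 to 13.6), 8.89% (7.32 to 10.7), 6.17% (4.58 to 8.26) and 8.45% (5.74 to 12.3). The intervals of AP2, TOE2 and SNZ overlapped between input and IP of each line.

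**Figure D2:**
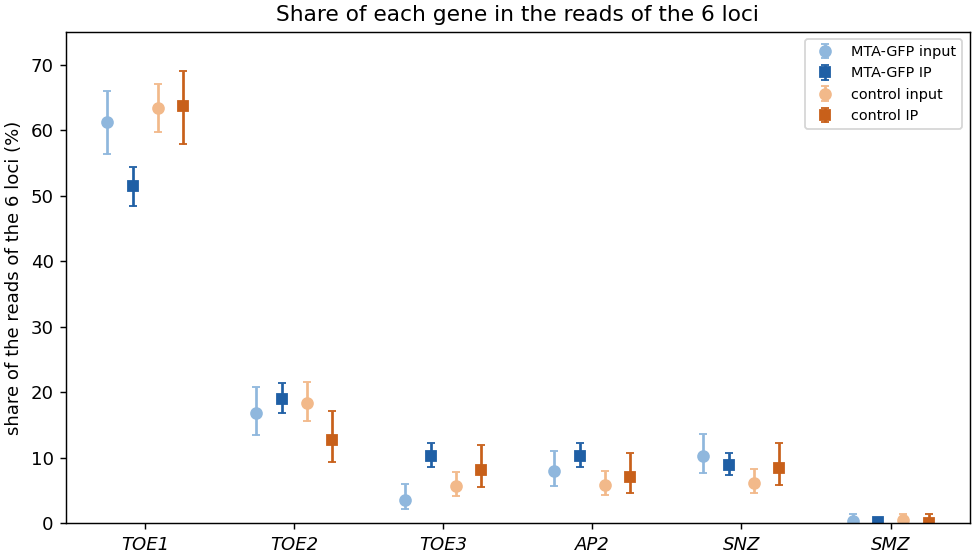
Share of each gene in the reads of the 6 loci (percent) in the 4 libraries, with 95% Wilson intervals. TOE3 goes from 3.56% to 10.2% between the MTA-GFP input and IP, while TOE1 goes from 61.3% to 51.5%.

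Set gene against gene, 5 of the 10 pairs among the 5 genes other than SMZ differed beyond counting error in MTA-GFP IP over input, and 4 of these 5 pairs involved TOE3. These intervals are not adjusted for the number of pairs, and the pairs share genes and libraries. All pairs with TOE3 rest on the same 14 reads in the MTA-GFP input. The share of pairs that differ among other loci was not taken. Of single loci, 14.2% had an interval above and 22% below the typical locus in this ratio. Relative to TOE3, the log2 enrichment in the MTA-GFP IP was -1.73 for TOE1 (-2.55 to -0.91) and -1.303 for TOE2 (-2.19 to -0.42). TOE3 exceeded SNZ by 1.68 (0.73 to 2.63) and AP2 by 1.11 (0.13 to 2.08). The other pair was TOE1 under AP2, at -0.62 (-1.23 to -0.01). With unadjusted intervals, TOE3 thus had a higher MTA-GFP IP over input ratio than each of its 4 relatives with enough reads. Set against the control in the double ratio, TOE3 still exceeded TOE1 and SNZ beyond counting error. TOE3 over AP2, at 0.87 (-0.57 to 2.32), and TOE2 over TOE3, at -0.27, were within counting error there. Between the IPs no pair with TOE3 differed beyond counting error.

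In control IP over input, 2 of 10 pairs differed. TOE2 was below TOE3 by a log2 of -1.03 (-1.95 to -0.12) and below SNZ by -0.99 (-1.88 to -0.09), so both pairs involved TOE2. In the double ratio 4 of 10 pairs differed. TOE1 lay below TOE2 at -0.95 (-1.70 to -0.21) and below TOE3 at -1.22 (-2.35 to -0.09). SNZ lay below both as well, with TOE2 over SNZ at 1.36 (0.25 to 2.48) and TOE3 over SNZ at 1.63 (0.23 to 3.04). With unadjusted intervals, the double ratio thus set TOE2 and TOE3 above TOE1 and SNZ, and AP2 did not differ from any of the 4 beyond counting error. Between the inputs 3 of 10 pairs differed, each with SNZ the higher gene, with TOE3 over SNZ at -1.37 (-2.45 to -0.30), TOE1 over SNZ at -0.77 (-1.44 to -0.11) and TOE2 over SNZ at -0.85 (-1.60 to -0.09). Between the IPs 2 of 10 differed, TOE1 under TOE2 at -0.88 (-1.44 to -0.32) and TOE1 under AP2 at -0.83 (-1.55 to -0.11). For these ratios too, the share of differing pairs among other loci was not taken. Of single loci, 18.1% had an interval above and 19.7% below the typical locus in control IP over input. These shares were 10.6% and 16.7% in the double ratio, 15.6% and 15.4% between the inputs, and 9.07% and 15% between the IPs.

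Against the typical nuclear locus, 1 of the genes passed the size rule in 1 comparison. A locus is called here when it differs by 2-fold or more and 1 lies outside the interval of the fold. Ratios were taken for loci with 40 or more reads summed over all libraries, unscaled, so the MTA-GFP IP weighs most in that sum. This left 5 of the 6 genes, without SMZ. In MTA-GFP IP over input 1 of the 5 was called higher, where 6.84% of all 15669 loci were, and 0 were called lower, where 8.71% of all were. Their median log2 ratio was -0.27, against -0.06 for all loci.

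The gene called was TOE3, with 14, 109, 38 and 23 reads in the MTA-GFP input, the MTA-GFP IP, the control input and the control IP. Scaled, these were 21.9, 46.04, 33.5 and 39.6. From MTA-GFP input to IP its log2 ratio was 1.03 (0.27 to 1.99), 2.04-fold and thus only just past the size rule, at percentile 92.0 of all loci. Its control IP over input was 0.25 (-0.57 to 1.03), or -0.89 on all reads, and its double ratio, 0.78, had an interval of -0.30 to 1.86. The MTA-GFP input was the low library, at 0.667-fold of the control input (log2 -0.58, -1.61 to 0.30), while the 2 IPs differed by a log2 of 0.19 (-0.44 to 0.94). TOE3 overlaps the neighbouring gene AT5G67170 by 119 bases in the reference table. The library kit keeps the strand, per the labels' protocols, but the sources used here do not say whether counting used it. AT5G67170 moved the other way, with 34, 46, 69 and 22 reads. It was called lower in the MTA-GFP IP, at -1.46 (-2.12 to -0.77), where 8.71% of all loci were. Its scaled reads in the control input and IP were 60.8 and 37.9. Whether reads were shifted between the overlapping genes was not tested.

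TOE1 had 241, 550, 422 and 181 reads, or 376, 232, 372 and 311 scaled reads. The 2 inputs were level at a log2 ratio of 0.02 (-0.22 to 0.25), and both IPs were below them. With MTA-GFP the ratio was -0.70 (-0.92 to -0.47), which turns to 1.47 when scaled to all reads and to 0.89 on the deposited TPM values, where the typical locus stands at 2.11 and 1.07. With the control it was -0.25 (-0.52 to -0.0016). The double ratio of -0.44 (-0.78 to -0.11) lay below 0 without reaching 2-fold, was at -0.03 when scaled to nuclear mRNA reads, and turned to 2.87 on all reads, 1.22 on the deposited TPM values and 0.60 for the most abundant transcript entry alone. Intervals wholly below 0 in the double ratio were found for 16.7% of all loci.

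TOE2 had 66, 203, 122 and 36 reads, or 103, 85.7, 108 and 61.9 scaled reads. The control IP was the low library and the other 3 were close to each other. The MTA-GFP IP stood at a log2 of -0.27 (-0.67 to 0.16) to its input, which turns to 0.02 on nuclear mRNA reads, 1.90 on all reads and 1.02 on the deposited TPM values. The control IP stood at -0.78 (-1.37 to -0.25). The double ratio was 0.51 (-0.16 to 1.18), but its interval left out 0 on nuclear mRNA reads, at 0.92 (0.25 to 1.59), and it was called with the most abundant entry alone, at 2.01. On all reads it was 3.82 and on the deposited TPM values 1.68, where the typical locus stands at 3.26 and 1.11. SNZ had 40, 95, 41 and 24 reads, or 62.4, 40.1, 36.1 and 41.3 scaled reads. Here the MTA-GFP input was the high library, and the other 3 were close.

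For SNZ the MTA-GFP IP stood against its input at a log2 of -0.65 (-1.18 to -0.07), which turns to 1.52 on all reads and 0.77 on the deposited TPM values, and in control IP over input it was 0.20 (-0.60 to 0.95). Its double ratio was -0.85 (-1.75 to 0.04), which turns to 2.46 on all reads and 0.61 on the deposited TPM values. Its MTA-GFP input over control input was 0.79 (0.12 to 1.45), or -0.17 on all reads. The 4 leaf mesophyll markers also differed between the inputs, at 1.60 to 1.73, and in the double ratio, at -1.88 to -1.32. Their part in the values of SNZ and of the other genes of the group was not tested. AP2 had 31, 110, 39 and 20 reads, or 48.4, 46.5, 34.4 and 34.4 scaled reads, with the 2 libraries of each line level with each other. The IP stood at -0.08 (-0.64 to 0.57) to its input for MTA-GFP, at 0.02 (-0.85 to 0.81) for the control, and the double ratio was -0.09 (-1.05 to 0.86). On nuclear mRNA reads these were 0.22, -0.10 and 0.32, so none of the 3 signs is settled.

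In the other comparisons none of the 5 genes was called in either direction. Among all loci, 9.28% were called higher and 12.1% lower in control IP over input, and 7.46% and 9.54% in the double ratio (17% either way). Between the inputs 7.1% were higher and 6.7% lower, and between the IPs 4.97% and 4.36% (9.32% either way). Leaving the fold aside, intervals off 1 were found for 1 of 5 genes higher (TOE3) and 2 lower (TOE1 and SNZ) in MTA-GFP IP over input, against 14.2% and 22% of all loci. In control IP over input 0 were higher and 2 lower (TOE1 and TOE2), against 18.1% and 19.7%. The interval of TOE1 there ends just below 0, and with DESeq2 size factors it includes 0 and the count falls to 1. In the double ratio 0 were higher and 1 lower (TOE1), against 10.6% and 16.7%. Between the inputs 1 was higher (SNZ) and 0 lower, against 15.6% and 15.4%, and between the IPs 0 were higher and 1 lower (TOE1), against 9.07% and 15%. The medians of the 5 genes between the control libraries, in the double ratio, between the inputs and between the IPs were 0.02, -0.09, 0.02 and 0.19, against 0.01, -0.05, 0.01 and -0.04 for all loci. Between the IPs, TOE1 was at -0.43 (-0.67 to -0.17), TOE2 at 0.45 (-0.05 to 1.02), AP2 at 0.40 (-0.26 to 1.20) and SNZ at -0.06 (-0.70 to 0.67). These comparisons share libraries with each other, so their values are not independent.

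**Figure D3:**
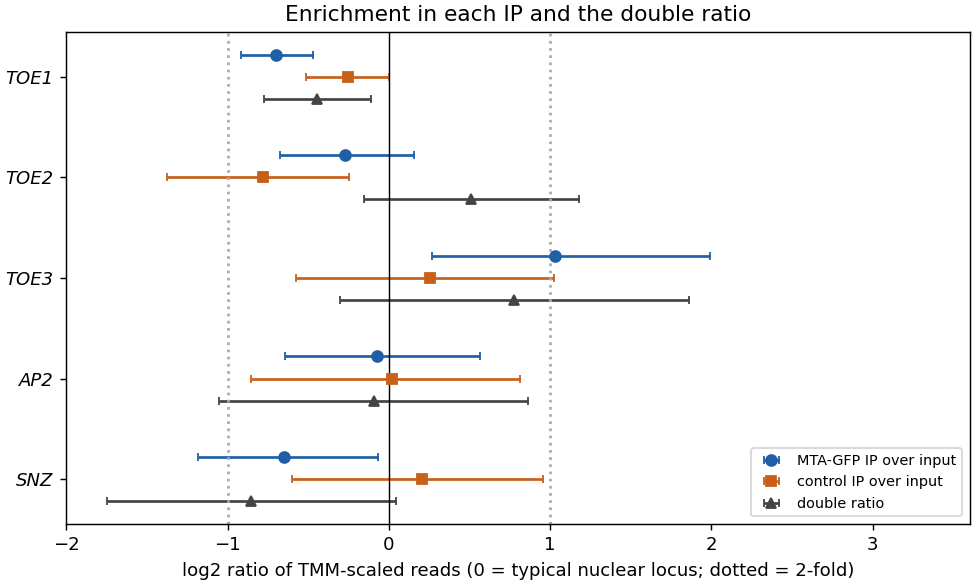
Log2 ratios of TMM-scaled reads for the 5 genes with at least 40 reads, with 95% counting intervals, where 0 is the typical nuclear locus and the dotted lines mark 2-fold. TOE3 is the gene past 2-fold in MTA-GFP IP over input, at 1.03, and TOE1 is below 0 in all 3 ratios shown.

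The loci whose scaled reads ran most like TOE1 over the 4 libraries, among 1849 loci with 0.5 to 2 times its reads, were SS4, a starch synthase, at a Euclidean distance of 0.0904 on the centred log2 scale, EIF3C, a subunit of translation initiation factor 3, at 0.0929 and the transcription factor WRKY11 at 0.109. Those most like TOE2, among 5747 loci, were AT2G44430 at 0.0626, AT4G13615 at 0.0704 and AT5G06695 at 0.0782. With 4 libraries, such likeness rests on few points.

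The files also split each gene's reads among transcript entries, as Salmon estimated them from reads that mostly fit several entries. This split has no interval here. The read sums per locus above do not depend on it, while the levels per length do through the entry lengths. TOE2 has 6 entries of 2210 to 2798 bases. Its longest entry, AT5G60120.3, held 16.1% of TOE2 reads in the MTA-GFP input and 51.3% in the MTA-GFP IP, against 29.1% in the control input and 65.3% in the control IP. In both lines the longest entry was the main one in the IP and a minor one in the input. The entries that gave way differed between the lines. AT5G60120.5, with 2431 bases, held 46.1% in the MTA-GFP input, where it was the largest entry, and almost no reads in the other 3 libraries. The shortest entry, AT5G60120.6, went from 37.4% to 32.5% between the MTA-GFP libraries, and in the control libraries from 64.6% to 18.1%. AT5G60120.4, with 2614 bases, held 0%, 16.2%, 5.63% and 16.3%.

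The longest of the 4 TOE3 entries, AT5G67180.1 with 1544 bases, likewise held 54.1% of the MTA-GFP input, 74.6% of its IP, 52.0% of the control input and 85.9% of its IP. Of the shorter TOE3 entries, AT5G67180.4 held 27.2%, 15.2%, 4.78% and 14.1%, AT5G67180.2 held 18.7%, 2.88%, 18.4% and 0%, and AT5G67180.3 held 0%, 7.40%, 24.8% and 0%. TOE1 has 6 entries of 1942 to 2493 bases, and 2 of them, AT2G28550.5 and AT2G28550.6, held most of its reads. AT2G28550.5 took 50.4%, 41.5%, 35.6% and 49.5% in the order used above, and AT2G28550.6 took 42.0%, 38.7%, 54.3% and 25.7%. The long entries differed by line. AT2G28550.4 held 7.65% and 19.7% of TOE1 reads in the MTA-GFP input and IP, but 0.19% and 0% in those of the control. AT2G28550.2 had almost no reads in either MTA-GFP library, and 9.88% and 21.4% in the control input and IP. AT2G28550.3 had reads in the control IP alone, at 3.44%.

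Expressed as the mean length of the entries that reads were assigned to, TOE1, TOE2 and TOE3 were longer in both IPs than in their inputs. TOE2 went from 2407 to 2577 bases in the MTA-GFP libraries, and in the control libraries from 2404 to 2660. TOE3 went from 1359 to 1435 and from 1368 to 1478, and TOE1 from 2090 to 2124 and from 2078 to 2184. Of 7909 loci with entries of several lengths, 32.1% were longer in both IPs, 62.1% in the MTA-GFP IP and 45.9% in the control IP. The 3 genes were thus longer in the IP of either line, and not in that of MTA-GFP alone.

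AP2 and SNZ were not longer in both IPs. The mean length of AP2 went from 1825 to 1808 bases in the MTA-GFP libraries and from 1825 to 1822 in the control libraries. SNZ was longer in the MTA-GFP IP, from 1443 to 1477, and shorter in the control IP, from 1542 to 1461. AP2 reads fell on the longer entry, AT4G36920.1, at 100% in both inputs, 78.7% in the MTA-GFP IP and 95.8% in the control IP, with the rest on AT4G36920.2. SNZ showed how unsteady the split can be, with its longer entry, AT2G39250.1, at 13.0% in the MTA-GFP input, 42.8% in the MTA-GFP IP, 100% in the control input and 29.4% in the control IP, and the rest on AT2G39250.2. Counting only the most abundant entry would move the SNZ double ratio from -0.85 to -7.29.

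**Figure D4:**
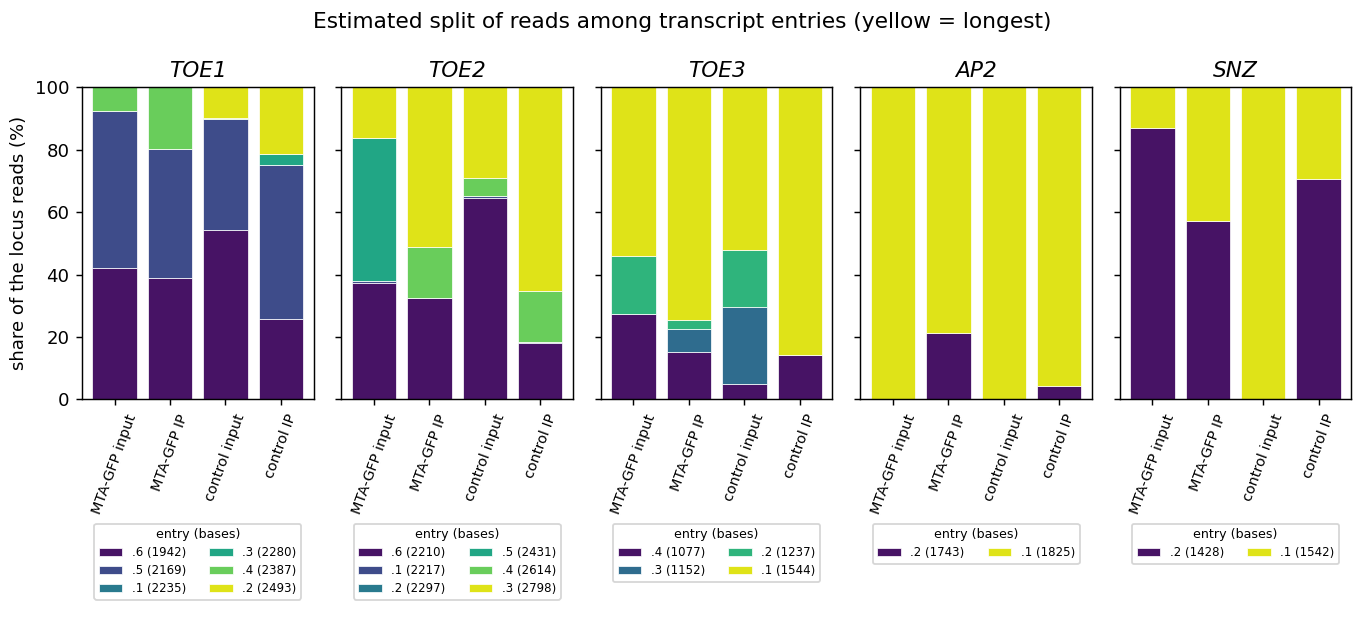
Estimated share of each locus's reads (percent) by transcript entry in the 4 libraries, from shortest (dark) to longest (yellow), for 5 genes. The longest TOE2 entry goes from 16.1% to 51.3% and from 29.1% to 65.3% between input and IP, and the SNZ split differs between the 2 inputs, at 13.0% and 100% for the longer entry.

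The miR172 genes themselves were read at low depth. With libraries in the same order as before, MIR172A had 3, 25, 8 and 8 reads, MIR172B had 3, 24, 7 and 2, and MIR172E had 0, 4, 0 and 1. MIR172C and MIR172D, present as precursor entries, had 0 reads in all 4 libraries, which allows up to 0.985 to 3.14 RPM of nuclear mRNA. Summed, the 5 genes held 5.93, 17.4, 8.71 and 11.5 RPM of nuclear mRNA, so each IP was above its input on this scale. No interval was taken for these sums, which in the control pair rest on 15 and 11 reads. MIR172A, the only one past 40 reads, was at a log2 ratio of 0.98 (-0.54 to 3.55) for MTA-GFP, at 0.97 (-0.65 to 2.58) for the control, and its double ratio was 0.01 (-2.10 to 2.13). MIR172B was at 0.92 (-0.60 to 3.49) and -0.62 (-4.14 to 1.55), with a double ratio of 1.54 (-1.08 to 4.16). No difference between the lines was detectable at this depth.

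Other genes of the flowering network give the setting. FT and TSF, the leaf-made florigens, had 0 reads in every library, and LFY had 0, 2, 2 and 0. FT, TSF and LFY were named after their values were seen. SOC1, a floral integrator that the AP2-like proteins repress, had 36, 222, 55 and 67 reads and stood at 0.72 (0.23 to 1.29) between the MTA-GFP libraries. In the control IP it was called higher, at 1.25 (0.71 to 1.79). GI and FKF1, clock-controlled regulators of CO, were at 0.21 and 0.11 with MTA-GFP and at 0.78 and 0.76 with the control.

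SPL10, a miR156 target, had 10, 127, 40 and 39 reads, with ratios of 1.72 (0.85 to 2.88) and 0.93 (0.25 to 1.60). Of 8 measured activators of flowering, 2 were called higher in MTA-GFP IP over input, SPL9 at 1.87 (0.71 to 3.67) and SPL10, and 1 lower, FD, the partner of FT at the shoot tip, at -1.70 (-2.82 to -0.55). Among all loci 6.84% were higher and 8.71% lower. In the control IP 2 were higher, SOC1 and SPL9, which stood at 1.36 (0.01 to 2.81), and 0 lower, against 9.28% and 12.1% of all loci. In the double ratio 0 were called in either direction, against 17% of all loci, with a median of -0.26. Between the inputs 1 was lower, SPL10 at -1.12 (-2.34 to -0.15), against 6.7%. SPL9 and FD were named because of their calls.

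Of 6 measured repressors outside the AP2-like group, 0 were called in MTA-GFP IP over input, 2 were higher and 1 lower in control IP over input, and 1 was higher and 1 lower in the double ratio. The shares over all loci were 15.5% either way in the first, 9.28% higher and 12.1% lower in the second and 7.46% and 9.54% in the third. TEM2 and TEM1, which repress FT directly, were at 0.85 (0.58 to 1.15) and 0.78 (0.51 to 1.08) for MTA-GFP. Both were called higher in the control IP, at 1.86 (1.62 to 2.11) and 1.09 (0.84 to 1.33). The double ratio of TEM2 was -1.01 (-1.38 to -0.64). LHP1, a chromatin protein that holds FT silent, had 43, 137, 259 and 27 reads, so the control input stood far above the rest, and its double ratio was 2.05 (1.297 to 2.80). LHP1 was also the 1 repressor called lower between the inputs, at -1.75 (-2.27 to -1.30), against 6.7% of all loci. The MADS-box repressors SVP and FLM were at -0.40 and -0.31 with MTA-GFP and -0.47 and 0.48 with the control.

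Of 6 co-repressor genes, which encode TOPLESS-type proteins and the histone deacetylase HDA19 that AP2 recruits, 0 were called in any of the 5 ratios. Among all loci 15.5% were called either way with MTA-GFP, 21.4% with the control and 17% in the double ratio. Between the inputs the share was 13.8% and between the IPs 9.32%. The median of the 6 genes was -0.03 with MTA-GFP and 0.14 with the control. TPL, with 144, 577, 178 and 153 reads, was at 0.11 (-0.15 to 0.39) and 0.75 (0.43 to 1.07). TPR4 was at -0.05 and 0.06, TPR1 at -0.01 and 0.22, TPR2 at -0.38 and 0.53, TPR3 at 0.44 and 0.01 and HDA19 at -0.52 and -0.89. The mRNAs of these partner proteins thus lay between -0.52 and 0.44 with MTA-GFP, and with the control between -0.89 and 0.75.

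Members of the wider AP2 family that lack a miR172 site were compared with the miR172 targets. Of 11 listed, 7 had reads and 5 passed the minimum. With MTA-GFP 0 of 5 were called, with a median of -0.38, and with the control 2 were lower, with a median of -0.87, against -0.27 and 0.02 for the miR172 targets. Among all loci 8.71% were lower in the first and 12.1% in the second. ANT, which promotes organ growth, had 15, 28, 78 and 13 reads, with log2 ratios of -1.01 (-1.94 to 0.03) and -1.57 (-2.59 to -0.76). It was also the 1 gene of this set called lower between the inputs, at -1.52 (-2.46 to -0.74), against 6.7% of all loci. WRI1, a regulator of fatty acid synthesis, had 20, 63, 40 and 8 reads, at -0.25 (-0.98 to 0.57) and -1.29 (-2.66 to -0.24). WRI4, with the most reads, was at -0.38 in both pairs, and WRI3 at -0.48 and -0.87. In the double ratio 0 were called, against 17% of all loci, with a median of 0.54 against -0.09. With 5 genes in each set and intervals that overlap, the difference between the sets was not tested.

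**Figure D5:**
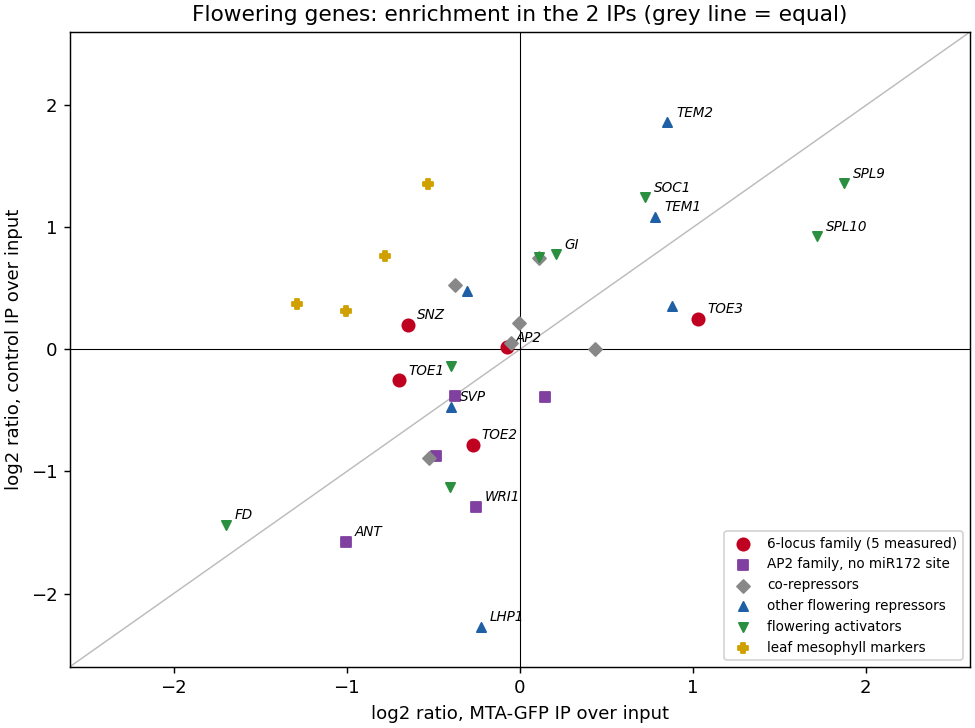
Log2 enrichment, MTA-GFP IP over input (horizontal) against control IP over input (vertical) for measured flowering, co-repressor, AP2-family and leaf marker genes, 1 point per gene, with the grey line where both are equal. The 5 miR172 targets lie within 1.03 of 0 on both axes, SPL9 and SPL10 lie to the right, and LHP1 lies lowest at -2.27 with the control.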

How the data were processed

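Nuclear RNA of 4 libraries was analysed, with 1 library in each group, grouped by sample title. Salmon, HISAT2, Bowtie and Trimmomatic are named, with build TAIR10, per the submitters' processing notes, and the sources used here do not give their order, versions or strand setting. Per the file headers, the deposited tables give an estimated count of reads, a TPM value and entry lengths in bases, which were used as another quantity, for 55524 entries.

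The estimates of all entries of a locus were added and the sum rounded to a whole number. The 32548 loci all matched the RefSeq gene table (TAIR10.1), used for symbols, gene types and neighbours. Nuclear mRNA means entries of protein-coding genes farther than 10 kb from a ribosomal RNA gene. Of 24235 loci with a read, 15669 with at least 40 reads in all were compared after TMM scaling (edgeR 4.0.16, R 4.3.3), with 0.5 reads added before log2. Intervals are exact conditional (Clopper-Pearson) for 2 libraries and from Poisson variances for double ratios and pairs of genes (scipy 1.17.1). With 1 library per group no p-value was computed. Depth limits genes with few reads: TOE3 and AP2 have double ratio intervals of about 1 log2 unit to each side. Alternatives were scaling to all reads, to mRNA reads or by DESeq2 1.42.0 size factors, other minimums and added reads, the deposited TPM values with 0.01 added, the most abundant entry alone and other call rules. The procedure was run on simulated independent Poisson counts, which hold no PCR copies, so this says nothing about error beyond counting.

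The members and lists were chosen with earlier results of these data known. Comparisons of gene with gene, of transcript entries and of entry lengths were added after the reads were seen. Named are all members and their transcripts with reads (AT2G28550.1, AT5G60120.1 and AT5G60120.2, each under 1 read in every library, are not described), lists of up to 6 genes in full, otherwise the 4 with the most reads and those called in the double ratio, and the 3 loci most like TOE1 and TOE2. Sequences were not used here.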

Additional observations from a re-analysis of the deposited data

Results flagged for a closer look

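SNZ and AP2 had log2 ratios of opposite sign in the 2 lines. SNZ stood at -0.65 in the MTA-GFP IP relative to its input and at 0.20 for the control, which gives a double ratio of -0.85 that turns to 2.46 on all reads and 0.61 on the deposited TPM values. AP2 stood at -0.08 and 0.02, which gives a double ratio of -0.094. The AP2 signs swap on nuclear mRNA reads, at 0.22 and -0.10, and with no minimum of reads both are negative, at -0.05 and -0.0050. Each value rests on 1 library per group, the double ratio intervals include 0, and the difference was not tested.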

How the results depend on the processing

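No paired analysis was possible because each group holds 1 library. Of 5 genes measured, 1 was called between the MTA-GFP libraries, 0 between the control libraries, and 0 each in the double ratio, between the inputs and between the IPs, the order used here. Scaled to all reads it was 5, 3, 5, 2 and 5. On that scale, of all 15669 loci, 14587 were called higher and 77 lower between the MTA-GFP libraries. Between the control libraries 196 were higher and 8262 lower, between the inputs 97 and 6804, and between the IPs 15191 and 40. Scaled to nuclear mRNA reads the double ratio called 1 gene, TOE3, and the other 4 counts of the 5 genes did not move. On the deposited TPM values, by fold alone, the counts in MTA-GFP IP over input, the double ratio and the IPs were 3, 4 and 4. Among all loci 8800 were then higher and 84 lower between the MTA-GFP libraries, and 7528 and 80 between the IPs. For the 5 genes the counts with intervals off 1 at any fold were 3, 2, 1, 1 and 1. With the most abundant transcript entry alone they were 2, 3, 2, 1 and 1. Of 14960 loci measured with that entry, 2457 were higher and 1925 lower between the MTA-GFP libraries. Between the control libraries these were 2109 and 2829, between the inputs 1736 and 2164, and between the IPs 2001 and 1245. DESeq2 size factors, no minimum, a minimum of 100 reads, fewer reads added, 0.5 scaled reads added (chosen after seeing the data) and 2-fold without an interval gave the same 5 counts of genes as the main setting. TOE3, the gene called in the main setting, stayed above 0 in MTA-GFP IP over input in every setting run. This says little, because the other settings raised the median of all loci in that ratio or left it near 0. With the most abundant entry alone TOE3 was at 0.97 (0.0031 to 1.94) in control IP over input. Its double ratio was then 0.48, and between the IPs it was at 0.0046. SNZ turned between settings that call it: between the MTA-GFP libraries it was at -1.19 with the most abundant entry and 1.52 on all reads, and in the double ratio at -7.29 and 2.46. Over all loci, 43.9% of calls in the double ratio were higher, against 99.8% on all reads, 78.6% on mRNA reads, 98.6% on deposited TPM and 54.4% with the most abundant entry. Between the MTA-GFP libraries the main 44.0% became 99.5%, 74.8%, 99.1% and 56.1% in that order, and between the IPs 53.3% became 99.7%, 83.5% and 98.9% on the first 3. Between the control libraries 43.4% became 2.32% on all reads and 30.8% on TPM, and between the inputs 51.5% became 1.41% and 27.96%. Counts of all loci called differ by over 1.5 times with those scales: in the double ratio 1169 higher and 1495 lower became 15132 and 24 on all reads, 2515 and 686 on mRNA reads and 9141 and 134 on TPM. With the most abundant entry alone they were 2478 and 2081. SMZ, with 6 reads, allows no ratio.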
